A study of Mus musculus with 21 samples.

Results

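The genes described here encode the subunits, activators and assembly chaperones of the proteasome. They are the rows of the count table whose mouse gene symbol begins with Psma, Psmb, Psmc, Psmd, Psme or Psmg followed by a digit, leaving out symbols that hold the pseudogene mark -ps. The rule found 48 of the 20960 genes. Of these, 18 belong to the core particle, namely 8 alpha genes, 7 constitutive beta genes and the 3 inducible catalytic genes Psmb8, Psmb9 and Psmb10. A further 17 belong to the regulatory particle, namely 6 ATPase genes, 3 other genes of its base and 8 genes of its lid. The remaining 13 are 4 chaperones of core assembly, 3 chaperones of base assembly, 5 genes of alternative activators, and Psmc3ip, which fits the naming rule but encodes a recombination protein and not a subunit.

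The proteasome degrades proteins that carry a ubiquitin chain. Its barrel-shaped core is built from outer rings of alpha subunits, which form the gate, and inner rings of beta subunits, some of which hold the proteolytic sites. The regulatory particle caps the barrel: its base holds ATPases that unfold the substrate and its lid holds the enzyme that removes the ubiquitin chain. In heart muscle the proteasome turns over sarcomere and signalling proteins, and under interferon the constitutive catalytic subunits can be replaced by inducible ones to form the immunoproteasome.

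RNA was sequenced from hearts of wild-type adult male mice. For 8 weeks, 4 mice received polystyrene nanoplastics, which are plastic particles of nanometre size, and 3 control mice received distilled water. Hearts were cut into 3 pieces labelled as atrial, right ventricle and left ventricle, and polyadenylated RNA of each piece was made into its own library, 21 in all. The sections of a mouse share the animal, so treatment was compared over mice.

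Of the 21 libraries, 20 held between 413436 and 2439314 counts, and 46 to 48 of the proteasome genes were detected in each. The right ventricular library of nanoplastics mouse 2 held 4662 counts, 37 of them from 20 proteasome genes, and is left out of all levels for sections. The section labelled atrial mostly lacked atrial muscle: the summed level of 10 atrial muscle markers was 354 to 833 CPM (a gene's share of the counts of its library on the usual fixed scale) in the control atrial libraries against 212 to 515 in the control left ventricle. In the nanoplastics atrial libraries the same sum ran from 142 to 64430 CPM, the highest in mouse 1, whose library is left out in an alternative. The marker Bmp10 was at 0 in the control atrial and left ventricular libraries. It was also at 0 in all nanoplastics atrial libraries, so it does not separate rich from poor ones. Cardiac muscle markers were high in the whole hearts of both groups, at 65860 to 81780 CPM in controls and 72560 to 85460 with nanoplastics. Of those tested, edgeR called 2 of 11 cardiac muscle markers and 1 of 8 atrial muscle markers higher with nanoplastics. Of the other cell types, 9 fibroblast markers summed to 1438 to 1734 CPM in controls and 1755 to 2444 with nanoplastics, with no overlap and 1 of 9 called higher. The part of these cell type markers in the proteasome values was not tested.

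Core genes were the most abundant members. Levels of different genes are compared as the mean CPM per kilobase of the longest annotated transcript over the 20 libraries. The highest was Psmb6, the constitutive subunit with caspase-like activity, at 469 CPM per kb. It was followed by the alpha ring gene Psma7 at 377, Psmb3 at 354, and Psmb7, the subunit with trypsin-like activity, at 316. This order depends on the lengths used: in CPM without them Psma7 was highest, at 436 against 374 for Psmb6. The third constitutive catalytic gene, Psmb5, which carries the chymotrypsin-like activity, lay far below its partners at 82.1. The median was 159 CPM per kb over the 18 core genes and 67.3 over the 17 regulatory genes. Subunits occupy the complex in fixed proportions, but their transcripts spanned a wide range within each particle.

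Within the regulatory particle the ATPase gene Psmc3 was highest, at 159 CPM per kb, and Psmc4 was the lowest ATPase, at 42.2. In the lid the level ran from 117 CPM per kb for Psmd7 to 5.41 for Psmd3. The ubiquitin receptor Psmd4 led the base genes outside the ATPases, at 85.0 CPM per kb. Among the activators, Psme2 and Psme1, which together form the interferon-inducible cap, stood at 146 and 131, while Psme4, a large activator that can cap the core in place of the regulatory particle, was at 13.7 and the nuclear activator Psme3 at 4.47. Psme2b, at 13.0, is a near-copy of Psme2, and how reads shared by both were counted is not stated, so both values are uncertain. The lowest members were Psma8, the alpha gene of the testis-specific proteasome, at 0.960, and the chaperone Psmg3 at 2.53. Neither passed the filter on low counts in any comparison.

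**Figure D1:**
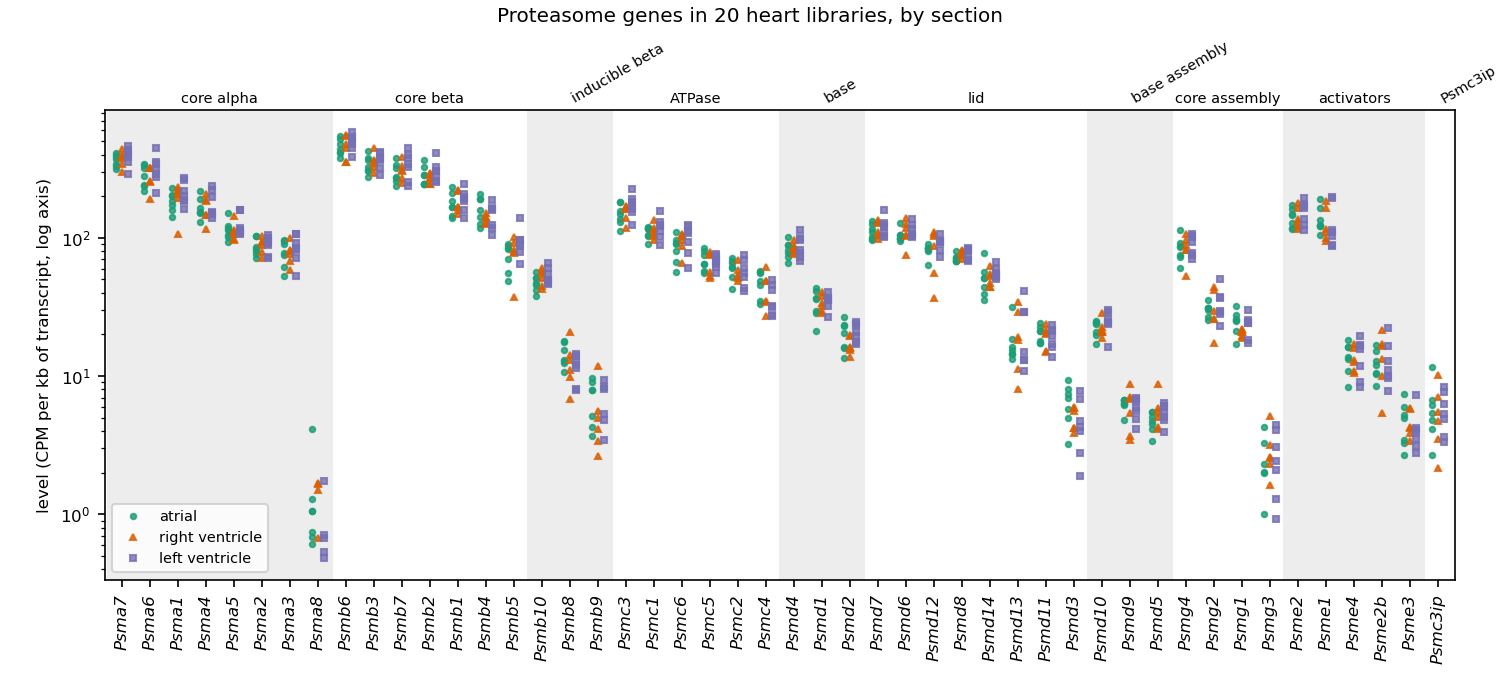
Level of each proteasome gene in CPM per kilobase of transcript (log axis) in the 20 libraries, by section. Genes are grouped by role and values of 0 are not drawn. Psmb6 has the highest mean level (469 CPM per kb) and Psma8 the lowest (0.960).

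To see what the promoters of core and regulatory genes hold, the 250 bases before each start site were searched on both strands in the RefSeq promoter table (GRCm38.p6), which holds 40 of the 48 members. The letters CCGGAAG, a common form of the site of ETS transcription factors, were found in 13 of the 40, which is 32.5%, against 7.83% of 27025 genes and 17.1% of the 6583 genes that were also tested in the whole heart. They were in 8 of 14 regulatory promoters and in 1 of 14 core promoters, that of Psma6. The windows below show that core gene and 4 regulatory genes, with the match in capitals. All are read 5′ to 3′ on the gene's strand, where a match on the opposite strand appears as CTTCCGG.
Psma6, chr12:55398673-55398719, plus strand: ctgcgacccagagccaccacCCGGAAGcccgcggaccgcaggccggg
Psmc1, chr12:100110154-100110200, plus strand: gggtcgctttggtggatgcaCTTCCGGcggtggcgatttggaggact
Psmd2, chr16:20651606-20651651, plus strand: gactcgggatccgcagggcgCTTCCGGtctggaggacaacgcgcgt
Psmd6, chr14:14120964-14121010, minus strand: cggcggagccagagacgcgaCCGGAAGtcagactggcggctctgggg
Psmd12, chr11:107479491-107479527, plus strand: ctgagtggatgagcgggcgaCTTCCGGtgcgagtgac

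The letters TGACNNNGC, the core of the antioxidant response element through which Nfe2l1 and Nfe2l2 act on proteasome genes, were in 5 of the 40 promoters (Psmb5, Psmb6, Psmc6, Psmd9 and Psmd12). That is 12.5%, close to the 11.5% of all genes in the table and the 14.2% of genes tested. The matches in the constitutive catalytic genes are shown with the match in capitals.
Psmb5, chr14:54618014-54618062, minus strand: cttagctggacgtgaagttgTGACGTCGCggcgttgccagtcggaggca
Psmb6, chr11:70525328-70525356, plus strand: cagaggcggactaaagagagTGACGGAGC
The CCAAT box was in 14 of 40 promoters (35% against 37.5% of all genes), 7 of 14 core and 4 of 14 regulatory. CACGTG was in 4 (10% against 6.86% of all genes and 10.1% of genes tested). TTCNNNGAA, a form of the interferon-gamma activated site, was in 2, Psmb8 and Psmg1. That is 5%, below the 8.13% of all genes and the 6.9% of genes tested. In the whole heart the median log2 change was 0.11 over the 13 tested members with CCGGAAG and 0.07 over the 26 without, and -0.07 over the 5 with TGACNNNGC and 0.08 over the 34 without. A match is a description of these letters and not a binding site.

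With nanoplastics, no proteasome gene passed the test in the whole heart, for which the 3 libraries of each mouse were added up. Each section thus weighs by its depth, and the mix of sections differed between mice. The atrial section gave 1053232 of 5535114 counts in control mouse 1 and 2275813 of 3638487 in nanoplastics mouse 4. In nanoplastics mouse 2 the right ventricle gave 4662 of 2336707 counts. Of the 46 members tested, edgeR's quasi-likelihood test called 0 at an adjusted p under 0.05, against 2.56% of all 8485 genes. DESeq2 called 6, all with higher values with nanoplastics: the core genes Psma4, Psmb1, Psmb3, Psmb4 and Psmb7, and the activator gene Psme1. It gave an adjusted p for 40 of the members, and called 9.38% of the 3549 genes that had one. At an unadjusted p under 0.05 edgeR gave 9 of 46 members against 18.2% of all genes. Of the 9, 7 were higher (9.15% of all genes) and 2 were lower (9.02% of all genes). The 9 of 46 are close to that background. In bulk tissue, fewer cells of a type and less RNA per cell cannot be told apart.

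The core gene nearest the threshold was a non-catalytic beta subunit. Psmb4, which helps to join the core as it assembles, was at 125, 138 and 159 CPM in the control mice and at 202, 174, 188 and 190 CPM with nanoplastics. All 4 nanoplastics mice lay above all 3 controls. The log2 change was 0.45 (SE 0.13, adjusted p = 0.0696 by edgeR, 0.0128 by DESeq2). Psmb1 was at 318, 271 and 280 CPM in controls and at 417, 400, 369 and 323 with nanoplastics, a log2 change of 0.40 (SE 0.13, adjusted p = 0.107 by edgeR). The groups did not overlap, but the lowest nanoplastics mouse and the highest control lay close together. In the alpha ring, Psma4 was at 153, 176 and 162 CPM in controls and at 218, 220, 221 and 181 with nanoplastics. Its nanoplastics mice lay above the controls, mouse 4 by little, and the log2 change was 0.38 (SE 0.13, adjusted p = 0.114 by edgeR).

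Of the 3 constitutive catalytic genes, Psmb7 separated the groups and Psmb5 and Psmb6 did not. Psmb7 was at 292, 291 and 311 CPM in controls and at 404, 410, 378 and 346 with nanoplastics, without overlap, a log2 change of 0.39 (SE 0.13, adjusted p = 0.0995 by edgeR). Psmb6 was at 401, 367 and 336 CPM in controls and at 309, 395, 385 and 289 with nanoplastics, with overlapping groups and a log2 change of -0.07 (SE 0.14, adjusted p = 0.844 by edgeR). Psmb5 was at 86.9, 73.4 and 69.3 CPM in controls and at 61.6, 75.5, 66.1 and 65.5 with nanoplastics, a log2 change of -0.17 (SE 0.14, adjusted p = 0.58 by edgeR). Whether the change of Psmb7 differs from those of Psmb5 and Psmb6 was not tested.

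**Figure D2:**
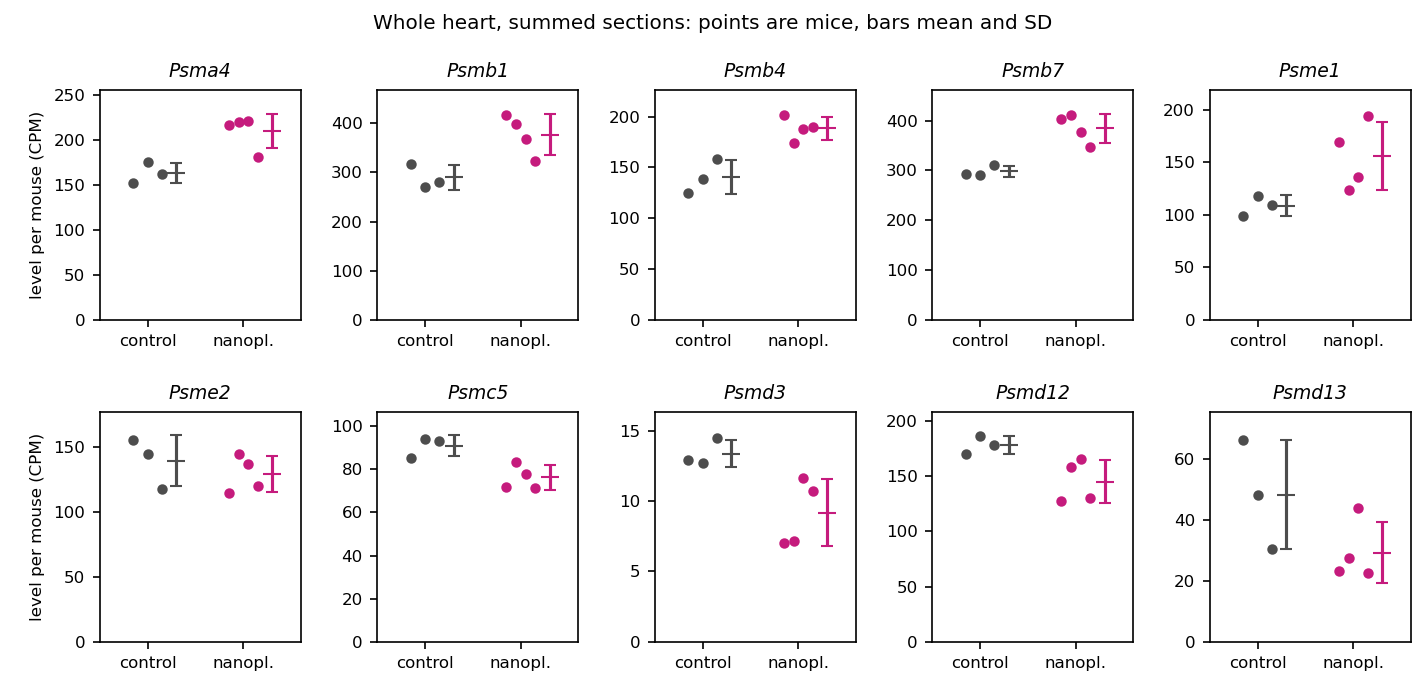
Level of 10 proteasome genes in each mouse (CPM, whole heart, TMM scaling), 3 control and 4 nanoplastics mice, with the mean and SD of each group. Psma4, Psmb1, Psmb4, Psmb7 and Psme1 lie above the controls in all 4 nanoplastics mice, Psmc5, Psmd3 and Psmd12 lie below them, and Psme2 and Psmd13 overlap.

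The regulatory particle genes with the most negative log2 changes, Psmd13, Psmd3 and Psmd12, belonged to the lid. The lid as a class did not fall: of its 8 genes 4 were positive and 4 negative, with a median of 0.0077. Psmd13 was at 66.1, 47.9 and 30.4 CPM in controls and at 23.0, 27.4, 43.8 and 22.6 with nanoplastics. The controls themselves spread over more than the gap between the means, and nanoplastics mouse 3 lay inside their range. The log2 change was -0.72 (SE 0.27, adjusted p = 0.182 by edgeR), and its size moved with single mice. Without nanoplastics mouse 3 it was -0.97 (adjusted p = 0.0392 by edgeR, in a fit that called 2.33% of all genes), and without control mouse 1 it was -0.40 (adjusted p = 0.49 by edgeR). Psmd3 was at 12.9, 12.7 and 14.5 CPM in controls and at 7.05, 7.19, 11.7 and 10.7 with nanoplastics, without overlap, at a log2 change of -0.49 (SE 0.22, adjusted p = 0.225 by edgeR). Psmd12, whose promoter holds both motifs, was at 171, 187 and 179 CPM in controls and at 127, 158, 165 and 130 with nanoplastics. Its groups did not overlap, and the log2 change was -0.27 (SE 0.13, adjusted p = 0.278 by edgeR).

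Of the ATPase genes, 5 of 6 had a positive log2 change and none passed the test. Psmc5 was at 85.5, 94.2 and 93.3 CPM in controls and at 72.0, 83.6, 78.1 and 71.4 with nanoplastics, below all controls, with a log2 change of -0.23 (SE 0.13, adjusted p = 0.372 by edgeR). Psmc3 was at 268, 248 and 247 CPM in controls and at 307, 307, 286 and 280 with nanoplastics, above all controls, with a log2 change of 0.24 (SE 0.13, adjusted p = 0.322 by edgeR). Psmc2 had a log2 change of 0.22 (SE 0.14, adjusted p = 0.414 by edgeR). Psmd14, the lid enzyme that removes ubiquitin chains, was at 74.5, 75.7 and 70.7 CPM in controls and 82.4, 75.5, 75.9 and 71.7 with nanoplastics, with wide overlap. The base genes Psmd1, Psmd2 and Psmd4 had log2 changes of 0.03, -0.02 and 0.13, each within its SE of 0.14 to 0.15.

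Of the activator pair, Psme1 had higher values with nanoplastics and Psme2 did not. Psme1 was at 98.6, 118 and 110 CPM in controls and at 169, 123, 136 and 194 with nanoplastics. All 4 nanoplastics mice lay above the controls, mice 1 and 4 far above and mouse 2 by little, and the log2 change of 0.55 (SE 0.15, adjusted p = 0.0576 by edgeR, 0.0158 by DESeq2) was the largest upward one among the members. Without the atrial library of nanoplastics mouse 1, the one rich in atrial muscle markers, it was 0.59 and passed the test (adjusted p = 0.0448 by edgeR, in a fit that called 2.62% of all genes). With any 1 whole mouse left out, Psme1 did not pass. Its log2 change then ran from 0.42 without nanoplastics mouse 4 (adjusted p = 0.137 by edgeR) to 0.64 without nanoplastics mouse 2 (0.064). It passed without a filter on low counts (0.52, adjusted p = 0.0319 by edgeR) and not with library totals (0.29, 0.22). Its partner Psme2 was at 155, 145 and 118 CPM in controls and at 115, 144, 137 and 120 with nanoplastics, with overlap and a log2 change of -0.09 (SE 0.14, adjusted p = 0.786 by edgeR). The ratio of Psme1 to Psme2 counts was 0.635, 0.817 and 0.931 in controls and 1.48, 0.854, 0.997 and 1.62 with nanoplastics, and mouse 2 lay inside the control range. Psme4 and Psme3 had log2 changes of 0.13 and 0.05, with SEs of 0.17 and 0.24.

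All 8 members whose nanoplastics mice lay above the controls were core genes (Psma4, Psma7, Psmb1, Psmb3, Psmb4 and Psmb7), Psmc3 or Psme1. The 8 of 46 compare with 7.09% of all genes tested. The 3 below were Psmc5, Psmd3 and Psmd12, against 9.1% of all genes. Of the assembly chaperones, Psmg1, Psmg2 and Psmg4, which help to build the alpha ring, had log2 changes of 0.31, 0.19 and 0.17 with SEs of 0.16 to 0.17, and Psmd5, Psmd9 and Psmd10, which escort the ATPases, had 0.06, 0.18 and -0.10 with SEs of 0.16 to 0.20. None of these 6 passed the test. Psmc3ip had -0.02 (SE 0.27).

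**Figure D3:**
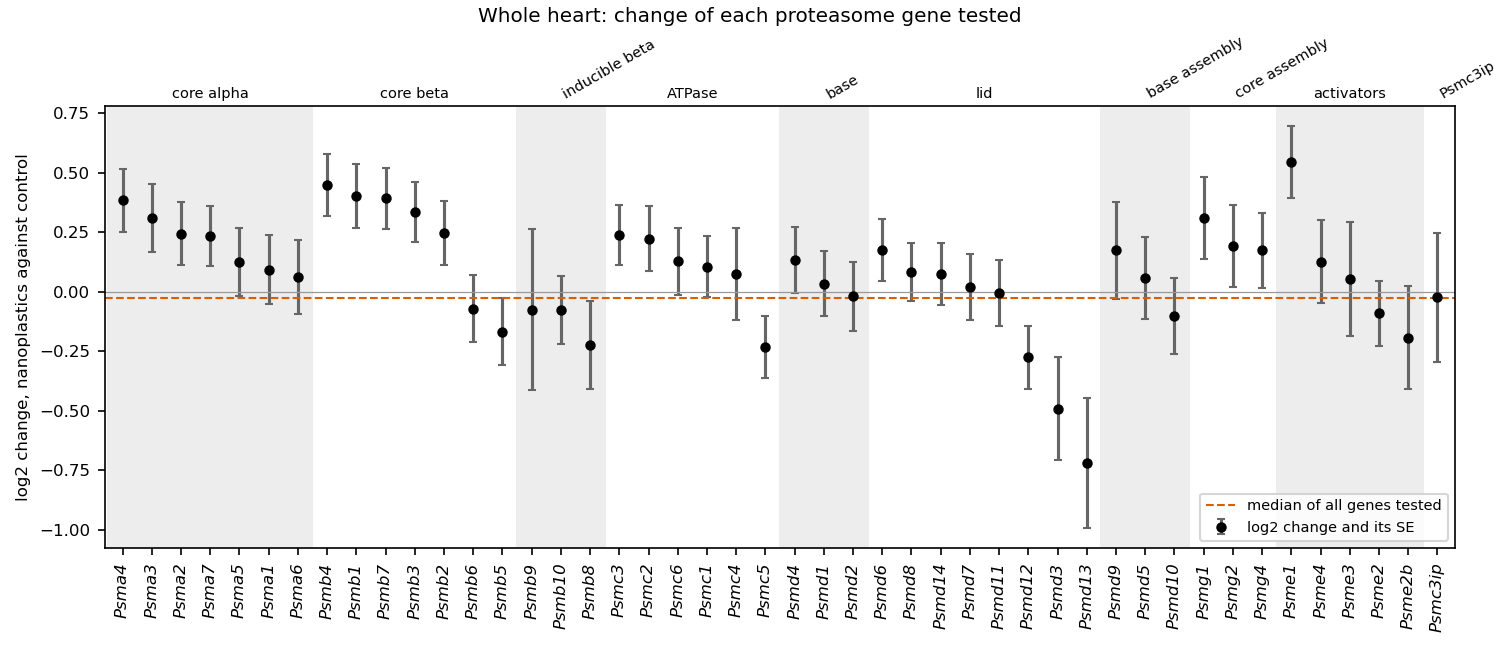
Log2 change with nanoplastics and its SE for the 46 proteasome genes tested in the whole heart, grouped by role, with the median of all genes tested (-0.03) as a dashed line. Psme1 (0.55) and Psmb4 (0.45) are highest, and Psmd13 (-0.72) is lowest with a wide SE.

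The inducible catalytic genes, which mark the immunoproteasome, did not pass the test. Psmb8 was at 20.9, 25.8 and 18.6 CPM in controls and at 20.04, 21.6, 15.7 and 16.9 with nanoplastics, a log2 change of -0.22 (SE 0.18, adjusted p = 0.575 by edgeR). Psmb9 was at 8.69, 11.8 and 3.77 CPM in controls and at 5.20, 11.7, 5.47 and 9.31 with nanoplastics, and Psmb10 was at 63.7, 61.2 and 67.8 against 52.3, 68.3, 65.0 and 54.5. Both overlapped widely, with log2 changes of -0.07 (SE 0.34) and -0.08 (SE 0.14). The 3 inducible genes made up 10.7, 11.9 and 11.2% of the counts of the 6 catalytic genes in controls and 9.10, 10.3, 9.41 and 10.3% with nanoplastics. These shares of the summed counts did not overlap, and the higher Psmb7 counts enter their denominator. Within each section the shares did overlap. They were 10.76 to 13.03% in controls against 8.385 to 11.3% with nanoplastics in the atrial section, and 9.258 to 11.85% against 8.125 to 10.88% in the left ventricle. In the right ventricle they were 11.2 to 11.92% against 9.067 to 11.36%, without the library of 4662 counts. Immune cell markers, 16 genes, summed to 776 to 1689 CPM in control hearts and 818 to 1418 with nanoplastics. The 16 interferon and antigen processing genes summed to 360 to 599 CPM in controls and 388 to 614 with nanoplastics. In the whole hearts no marker of either list was at 0 in a group, and 0 of 13 and 0 of 10 tested were called by edgeR. Within sections, Cd3e and Nlrc5 were at 0 in some groups, and Cd79a and Tap1 in the nanoplastics right ventricle. The part of these markers in the inducible genes was not tested.

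The median change over all core genes was higher than that over regulatory genes, and it was not once the trend on transcript length was taken out. The median log2 change was 0.23 over the 17 core genes tested and 0.07 over the 17 regulatory genes, against -0.03 over all genes. All 7 alpha genes were positive, as were 5 of 7 constitutive beta genes and 11 of 17 regulatory genes. With library totals in place of TMM scaling the median of all genes was -0.27, the core median -0.01 and the regulatory median -0.18, so that 2 of 7 alpha genes and 0 of 17 regulatory genes were positive. On that scale edgeR called 9.39% of all genes and 3 members, Psmc5, Psmd12 and Psmd13, all lower, and the log2 change was 0.29 for Psme1 and 0.19 for Psmb4. Core transcripts are short, with a median of 1183 nucleotides for those tested, against 1819 for regulatory genes and 2814 for all genes. Among all genes, the shortest 20% (57 to 1456 nucleotides) had a median log2 change of 0.21 and the longest 20% had -0.10. Those shortest transcripts included 13 of the 17 core genes and 3 of the 17 regulatory genes. After the length trend of each library was taken out, the medians were 0.02 for core and 0.07 for regulatory genes, against -0.0038 for all genes. Within the core they were 0.115 for alpha genes, 0.07 for constitutive beta genes and -0.15 for the 3 inducible genes. In that fit edgeR called 0 members and 0.33% of all genes. The difference between the particles was not tested.

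**Figure D4:**
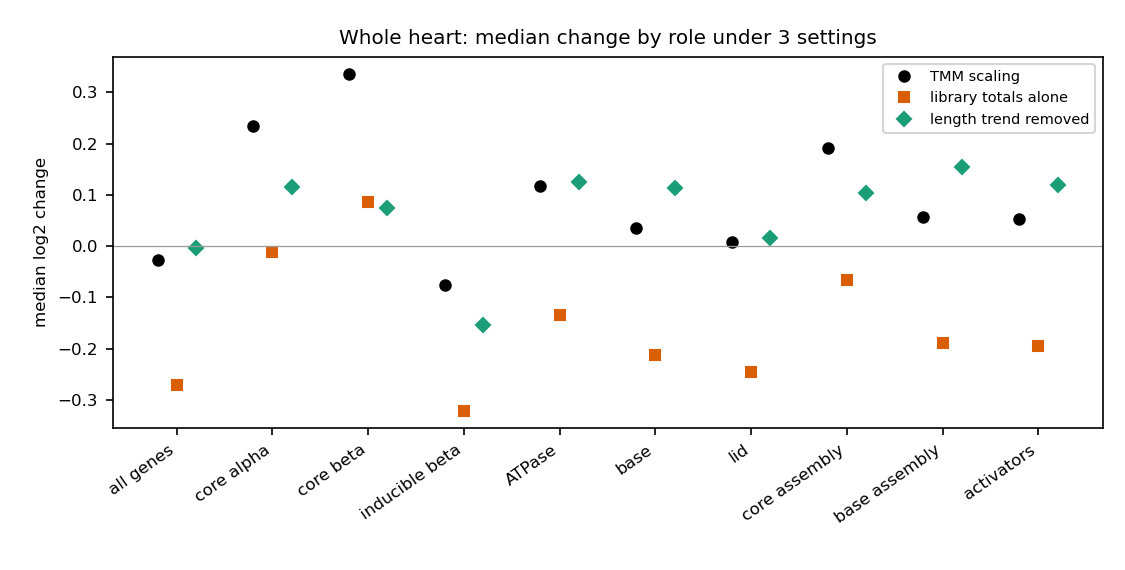
Median log2 change of the tested genes of each role and of all genes in the whole heart, with TMM scaling, with library totals alone, and with the trend on transcript length removed. The constitutive beta median is 0.34, 0.09 and 0.07 in that order, and the inducible median lies below 0 in all 3.

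As a share of all counts, the 48 genes took 0.602, 0.645 and 0.640% in the control mice and 0.580, 0.615, 0.601 and 0.575% with nanoplastics, with overlap. The ratio of core to regulatory counts was 1.85, 1.66 and 1.58 in controls and 1.94, 1.99, 1.93 and 1.77 with nanoplastics. Control mouse 1 lay above nanoplastics mouse 4, so that the groups overlapped.

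Within sections, nanoplastics and control mice were compared in the same way. In the atrial section edgeR called 0 of 45 members and 0% of all genes. DESeq2 called 0 of the 9 members with an adjusted p, and 19.3% of the 486 genes that had one. It gave no adjusted p for 36 members. At an unadjusted p under 0.05 there was 1 member, Psmb4, against 12.3% of all genes. Psmb4 was at 138, 150 and 167 CPM in control atrial libraries and at 245, 189, 224 and 226 with nanoplastics, all above the controls, at a log2 change of 0.51 (SE 0.18, adjusted p = 0.305 by edgeR). In this section all 7 alpha genes tested were positive, with a median of 0.21, while the median of the 17 regulatory genes was 0.00.

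In the left ventricle edgeR called 0 of 45 members, against 0.0551% of all genes. DESeq2 called 2, Psmb4 and Psmb7, of the 17 members with an adjusted p, and 11.5% of the 693 genes that had one. At an unadjusted p under 0.05 there were 8 members against 14.1% of all genes: Psma4, Psmb4, Psmb7, Psmc2, Psmc3 and Psme1 higher, and Psmd3 and Psmd13 lower. Psmb7 was at 377, 293 and 274 CPM in control left ventricles and at 522, 465, 395 and 438 with nanoplastics, all above the controls, at a log2 change of 0.47 (SE 0.15, adjusted p = 0.151 by edgeR). Psmd3 was at 14.8, 16.7 and 8.64 CPM in controls and at 4.07, 9.19, 10.2 and 5.98 with nanoplastics. The shallow library of control mouse 3 lay inside the nanoplastics range, and the log2 change was -1.04 (SE 0.36, adjusted p = 0.175 by edgeR). Of the alpha genes 4 of 7 were positive, with a median of 0.19, and the median of the 17 regulatory genes was 0.02.

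In the right ventricle edgeR called 0 of 42 members, against 0.869% of all genes. DESeq2 called 0 members and 0 of all 4489 genes. At an unadjusted p under 0.05 there were 3 members against 13.5% of all genes: Psmd12 and Psmd13 lower and Psme1 higher. Psmd13 was at 67.8, 57.8 and 37.8 CPM in control right ventricles and at 15.9, 36.4 and 22.5 in nanoplastics mice 1, 3 and 4, all below the controls. The fit also holds the library of 4662 counts. The log2 change was -0.92 (SE 0.29, adjusted p = 0.0714 by edgeR). Psmd12 was at 202, 210 and 217 CPM in controls and at 109, 172 and 72.0 in the same nanoplastics mice, again below, at a log2 change of -0.62 (SE 0.24, adjusted p = 0.178 by edgeR). Psme1 was at 105, 130 and 122 CPM in controls and at 182, 111 and 207, with mouse 3 inside the control range, at a log2 change of 0.64 (SE 0.24, adjusted p = 0.141 by edgeR). Without nanoplastics mouse 3 edgeR called all 3, and 3.67% of all genes, with Psmd13 at -1.31, Psmd12 at -0.93 and Psme1 at 0.92. Those calls rest on nanoplastics mice 1 and 4, since the remaining nanoplastics library is the one of 4662 counts. Without nanoplastics mouse 4 Psmd12 was at -0.41 and Psme1 at 0.40. Of the alpha genes 5 of 7 were positive.

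**Figure D5:**
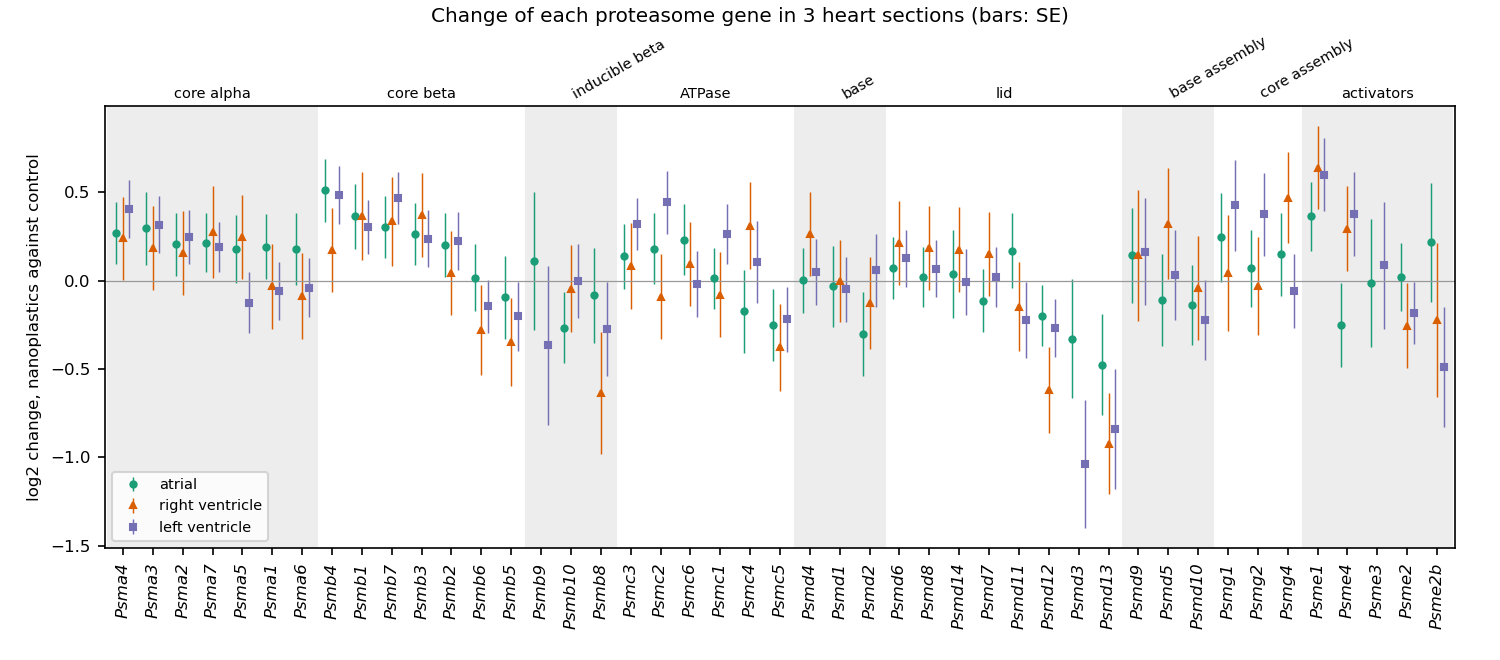
Log2 change with nanoplastics and its SE for each tested proteasome gene in the atrial section, the right ventricle and the left ventricle, in the gene order of the whole heart. Psme1 is positive and Psmd13 negative in all 3 sections, while Psme4 is negative in the atrial section (-0.25) and positive in the left ventricle (0.38).

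The effect of nanoplastics on proteasome genes was not shown to differ between sections. The fits for this hold all 21 libraries, also the one of 4662 counts. For the atrial section against the left ventricle, edgeR and DESeq2 called 0 of 46 members. Over all genes edgeR called 0% and DESeq2 1 of 6269. At an unadjusted p under 0.05 there was 1 member, Psme4, against 5.5% of all genes. Psme4 was at 70.5, 118 and 105 CPM in control atrial libraries and 53.8, 86.4, 106 and 89.7 with nanoplastics, and at 58.6, 109 and 54.0 against 77.3, 126, 108 and 102 in the left ventricle. The groups overlapped in both sections, and the difference of the log2 changes was -0.70 (SE 0.25, adjusted p = 0.851 by edgeR). For the right against the left ventricle, edgeR called 0 of 46 members and 0% of all genes. DESeq2 called 0 members and 0 of all 6269 genes. The 1 member at an unadjusted p under 0.05, against 3% of all genes, was Psmc2, with a difference of -0.55 (SE 0.26, adjusted p = 1 by edgeR).

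Between sections, over both treatments and with the mouse as a block, no member passed either. The contrasts with the right ventricle hold the library of 4662 counts, which the levels leave out. For the atrial section against the left ventricle, edgeR and DESeq2 called 0 of 45 members. Over all genes edgeR called 0.155% and DESeq2 8 of 5176. At an unadjusted p under 0.05 there were 2 members against 12.6% of all genes. Psmc4, an ATPase, had a mean of 68.3 ± 14.4 CPM (SD, n = 7) in the atrial section, 61.4 ± 18.3 (SD, n = 6) in the right ventricle and 52.6 ± 13.2 (SD, n = 7) in the left ventricle. It was higher in the atrial section than in the left ventricle by a log2 difference of 0.44 (SE 0.13, adjusted p = 0.178 by edgeR). Psmb5 was at 66.8 ± 14.9 CPM (SD, n = 7) in the atrial section and 83.9 ± 20.8 (SD, n = 7) in the left ventricle, a log2 difference of -0.31 (SE 0.14, adjusted p = 0.38 by edgeR). Within mice, Psmc4 was higher in the atrial section than in the left ventricle in 7 of 7 and Psmb5 was lower in 6 of 7. These counts use the libraries whose test picked the 2 genes, so they add no support to it.

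For the atrial section against the right ventricle, edgeR and DESeq2 called 0 of 44 members. Over all genes edgeR called 0.606% and DESeq2 4 of 4954. The 1 member at an unadjusted p under 0.05, against 7.27% of all genes, was Psmd3, at a log2 difference of 0.50 (SE 0.24, adjusted p = 0.649 by edgeR). For the right against the left ventricle both tools called 0 of 44 members. Over all genes edgeR called 0.02% and DESeq2 0 of 5012. At an unadjusted p under 0.05 there were 0 members, against 5.21% of all genes. The member medians for these contrasts were -0.07 (atrial against left), -0.0047 (atrial against right) and -0.03 (right against left). Psmb6, the most abundant core gene per length, was at 364 ± 49.1 CPM (SD, n = 7) in the atrial section, 364 ± 70.8 (SD, n = 6) in the right ventricle and 393 ± 50.8 (SD, n = 7) in the left ventricle. These SDs are between mice of both treatments and do not measure the spread of section differences within mice.

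Other genes of the ubiquitin and proteasome pathway were taken from a list of 61 genes, 59 of which were tested in the whole heart. edgeR called 1 higher and 1 lower, against 2.56% of all genes. DESeq2 called 2, against its own 9.38%, and gave no adjusted p for 18 of the 59. At an unadjusted p under 0.05 edgeR gave 17 of 59, against 18.2% of all genes. Of the 17, 3 were higher (9.15% of all genes) and 14 were lower (9.02% of all genes). Whether these shares differ from those of all genes was not tested. Rps27a, which encodes ubiquitin fused to a ribosomal protein, was at 786, 694 and 592 CPM in controls and at 1295, 1054, 904 and 872 with nanoplastics. It rose in all 4 mice above the controls, by 0.60 on the log2 scale (SE 0.15, adjusted p = 0.0374 by edgeR). Ube2s, a ubiquitin-conjugating enzyme that extends chains in mitosis, was at 30.5, 29.6 and 26.4 CPM in controls and at 14.9, 21.1, 20.1 and 12.1 with nanoplastics, and fell by 0.76 on the log2 scale (SE 0.19, adjusted p = 0.0391 by edgeR). Both calls were lost under several settings. For Rps27a the log2 change was 0.35 with the length trend taken out (adjusted p = 0.153), 0.35 with library totals (0.0674) and 0.24 with equal section weights in limma (0.751). For Ube2s it was -0.86 with the length trend taken out (adjusted p = 0.0505), a larger change with a lost call, -0.61 with the replicate block (0.0977) and -1.11 with equal section weights (0.556). Leaving out 1 mouse ended the call of Rps27a without control mouse 2 (0.61, adjusted p = 0.162 by edgeR), control mouse 3 (0.51, 0.123), nanoplastics mouse 1 (0.48, 0.0874) or nanoplastics mouse 2 (0.59, 0.0794). It ended that of Ube2s without control mouse 1 (-0.69, adjusted p = 0.107 by edgeR), control mouse 2 (-0.73, 0.162), control mouse 3 (-0.81, 0.0776), nanoplastics mouse 1 (-0.70, 0.1), nanoplastics mouse 2 (-0.88, 0.0536) or nanoplastics mouse 4 (-0.61, 0.0893).

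Of the genes for other proteasome parts that the naming rule does not hold, none named here passed the test. Sem1, a small lid subunit, was at 584, 501 and 472 CPM in controls and at 699, 660, 612 and 605 with nanoplastics, above all controls, at a log2 change of 0.34 (SE 0.13, adjusted p = 0.164 by edgeR). Pomp, the maturation factor of the core, had 0.29 (SE 0.13, adjusted p = 0.229 by edgeR), with 234, 211 and 241 CPM in controls and 282, 297, 278 and 244 with nanoplastics. The ubiquitin receptor Adrm1 and the deubiquitinases Usp14 and Uchl5, which dock on the regulatory particle, had log2 changes of -0.34, 0.08 and -0.12, with SEs of 0.19, 0.14 and 0.17.

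Nfe2l1, the factor that restores proteasome gene transcription when proteasome activity drops, was at 81.9, 67.2 and 62.6 CPM in controls and at 49.4, 47.2, 61.7 and 58.4 with nanoplastics. Its 4 nanoplastics mice lay below the controls, mouse 3 by little, at a log2 change of -0.36 (SE 0.15, adjusted p = 0.195 by edgeR). Nfe2l2, the related factor of the antioxidant response, had 0.20 (SE 0.23, adjusted p = 0.714 by edgeR). Of the muscle ubiquitin ligases linked to atrophy, Fbxo32 was at 41.0, 47.0 and 43.2 CPM in controls and at 25.6, 27.9, 38.3 and 36.1 with nanoplastics, without overlap, at a log2 change of -0.42 (SE 0.16, adjusted p = 0.165 by edgeR). Trim63 was at 121, 73.0 and 65.8 CPM in controls and at 47.9, 71.0, 70.1 and 49.1 with nanoplastics, with overlap, at a log2 change of -0.53 (SE 0.21, adjusted p = 0.185 by edgeR), which was -0.18 (adjusted p = 0.708) without control mouse 1. Without control mouse 1 the log2 change of Nfe2l1 was -0.21 (adjusted p = 0.605 by edgeR). With library totals edgeR called Nfe2l1 (-0.59, adjusted p = 0.0232), Fbxo32 (-0.66, 0.0303) and Trim63 (-0.76, 0.0267), on a scale where the median of all genes was -0.27. Without a filter on low counts it called Trim63 (-0.55, adjusted p = 0.0243).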

How the data were processed

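The authors deposited raw read counts, 1 table of 20960 gene symbols by 21 libraries. Libraries were made with a plate kit that captures polyadenylated RNA on oligo-dT beads and adds a barcode at the 5' end, per the labels' protocols. STAR, an aligner, is named in the submitters' processing notes; its version is not given in the sources used here, nor are genome build, annotation, counting program, or any use of strand or molecular identifiers. Reads copied from one molecule are not independent, so spread within a library is not used as error.

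Analysis used R 4.3.3 and edgeR 4.0.16 (filterByExpr, TMM scaling, robust quasi-likelihood test, Benjamini-Hochberg adjustment over all genes tested, called at adjusted p under 0.05), limma 3.58.1 and DESeq2 1.42.0. Adjusted p-values in the text name their tool. Levels are CPM with TMM scaling, except marker sums and shares of counts, which use library totals. Lengths are those of the longest protein-coding transcript in GENCODE M21. The length alternative removes each library's lowess trend (span 0.5) of log counts on log length. Sections were compared with the mouse as a block. Named genes are members called in any comparison, the 6 catalytic genes, and in each role the member with the highest level and the 2 with the largest absolute change, plus fixed pathway genes; other members named beyond that rule (such as Psmc2, Psmd14 and the section genes at an unadjusted p under 0.05) were chosen after their values were seen. The members, lists and motifs were chosen with earlier results of these data known. The steps were tested on simulated counts. No pair of the 210 pairs of libraries was identical.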

Additional observations from a re-analysis of the deposited data

Results flagged for a closer look

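In 4 of 81 groups of 4 nanoplastics mice, 1 mouse lay apart from the other 3 by more than Dixon's 95% critical share of the group's range, a limit that chance passes in about 1 in 20 groups. In the whole heart, Psma4 was at 181.4 CPM in nanoplastics mouse 4, against 217.5 to 221.1 in the other 3. In the left ventricle, Psmb4 was at 223.7 CPM in nanoplastics mouse 1, against 189.5 to 194.8. In the atrial section, nanoplastics mouse 3 was at 16.27 CPM for Psmd9, a base assembly chaperone, against 17.42 to 17.51, and at 33.71 CPM for Psmg1, a core assembly chaperone, against 26.27 to 27.06.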

How the results depend on the processing

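Of the 9 comparisons, 6 gave 0 proteasome genes called under each alternative run. In the whole heart DESeq2 called 6 (9.38% of all genes with an adjusted p), library totals without TMM 3 (9.39%; Psmc5, Psmd12 and Psmd13, all lower), no filter on low counts 2 (1.52%; Psmd13 and Psme1), and leaving out the atrial library of nanoplastics mouse 1, alone or together with the library of 4662 counts (chosen after seeing the data), 1 (Psme1; 2.62% and 2.63% of all genes). Leaving out 1 mouse at a time gave 0 to 1 (2.33% of all genes without nanoplastics mouse 3). In the right ventricle library totals gave 2 (5.21%) and leaving out 1 mouse gave 0 to 3 (3.67% without nanoplastics mouse 3). In the left ventricle DESeq2 gave 2 (11.5%). A replicate number stands for another animal in each treatment group, and same-numbered mice did not deviate together (correlations of 0.07, 0.09 and -0.04). The replicate block called 3 in the whole heart (Psma4, Psmb1 and Psmb7; 3.8% of all genes) and ended the call of Ube2s.

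Some small log2 changes in the whole heart turned their sign. With library totals these were Psma7 (-0.011), Psmc3 (-0.0082), Psmd1 (-0.21), Psmd4 (-0.12), Psmd7 (-0.23), Psmd9 (-0.079), Psmg2 (-0.065), Psmg4 (-0.070), Nfe2l2 (-0.061) and Usp14 (-0.16), where the median of all genes was itself -0.27. With sections at equal weight in limma, which gives the library of 4662 counts the weight of a full section, they were Psma3 (-0.31), Psmd1 (-0.55), Psmd4 (-0.46), Psmd7 (-0.56), Psmd9 (-0.18), Psmg1 (-0.12), Psmg2 (-0.31), Psmg4 (-0.25), Nfe2l2 (-0.27), Pomp (-0.39) and Usp14 (-0.47), against a median of all genes of -0.30. Psmd7 was at -0.0044 without a filter, -0.0074 with the length trend removed and -0.022 with the replicate block. Psmg4 was at -0.19 with the length trend removed, and Psmc3ip at 0.0016 by DESeq2. With 1 mouse left out, the range was -0.15 to 0.021 for Psmb6, -0.34 to 0.30 for Psmb9, -0.21 to 0.19 for Psmc3ip, -0.010 to 0.15 for Psmd1, -0.048 to 0.14 for Psmd7, -0.0085 to 0.31 for Psmd9, -0.19 to 0.020 for Psme2 and -0.22 to 0.033 for Uchl5. The cause was not tested. Depth limits Psma8 and Psmg3, which were not tested in any comparison, and the right ventricle, where 6 members were not tested.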
